A study of Mus musculus with 8 samples.

Results

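The genes described here are 10 that are known from work on luminal progenitors of the mouse mammary gland, out of 49671 genes in the deposited table. The rule lists them by name and sets no threshold on their values. They comprise 6 transcription factors (Elf5, Ehf, Elf3, Gata3, Stat5a and Foxi1) and 4 surface markers (Kit, Cd14, Plet1 and Tspan8). Each of the 10 passed the filter on low values (at least 40 reads per 20000000 in at least 2 libraries), as did 16900 genes in all. Foxi1 passed it through its luminal libraries only. RNA was sequenced in bulk from sorted mammary gland cells of female mice of mixed background, in 8 libraries that form 4 groups of 2. The CD1 groups came from CD1 mice. The DNp63 groups came from K8rtTA/TetOCre/Rosa26-DNp63-IRES-GFP mice and were gated on GFP. In those mice the keratin 8 promoter drives the doxycycline-dependent activator rtTA, the activator switches on Cre, and Cre releases ΔNp63 together with GFP from the Rosa26 locus. All sorted cells lacked CD45, CD31 and CD140a and carried CD24. Cells with low CD29 are called luminal here (40000 cells per sort) and cells with high CD29 basal (5000 cells per sort). The age of the mice and the induction schedule of the DNp63 mice were not given in the sources used here. Along with the transgene came a difference in strain, doxycycline and gating on GFP, and their parts in a difference between DNp63 and CD1 libraries cannot be told apart. Since no label states that the paired libraries are from different animals, the p-values measure only the spread between these libraries, which may be technical.

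The mammary duct has an inner luminal layer, made up of hormone-sensing cells and of progenitors that give rise to milk-secreting alveolar cells, and an outer basal layer of contractile myoepithelial cells. Luminal progenitors are commonly recognised by the receptor tyrosine kinase KIT and the lipopolysaccharide co-receptor CD14, and depend on the ETS factor ELF5. GATA3 maintains luminal identity at large, and STAT5A relays the prolactin signal to the milk protein genes. ΔNp63 is the form of p63 that basal cells carry.

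Recovered sequencing depth was 4136973 to 7206700 reads per library, and the value of 1 read was 2.78 to 4.83 on the deposited scale of reads per 20000000. The gates carried their defining transcripts: summed values of 10 luminal gate markers were 196736 to 223998 in luminal libraries and 16403 to 37306 in basal libraries, and those of 11 basal gate markers 24702 to 30598 and 257773 to 279856. Endothelial markers moved with the gates as well (summed values 1003 to 1631 in luminal and 36194 to 52322 in basal libraries, 10 genes), as did adipocyte markers (471 to 755 and 16039 to 28179, 8 genes) and pericyte markers (4448 to 6254 and 18966 to 26055, 8 genes). Fibroblast markers (8 genes) summed to 9155 and 44193 in the CD1 luminal pair and 16994 and 9824 in the DNp63 luminal pair. In the CD1 basal pair they summed to 16809 and 46320, and in the DNp63 basal pair, the highest, to 68930 and 92152. Between the basal groups 0 of the 8 had an adjusted p under 0.05 in limma (median log2 difference 1.49). The part of such cells in the differences below was not tested. Xist, which is transcribed from the inactive X chromosome of female cells, was at 36 in the second DNp63 luminal library and 141 in the second DNp63 basal library, and at 55545 to 111346 in the other 6. All 8 libraries are labelled female, so the counts of the 10 genes are given with and without these 2 libraries, as are list counts and calls that change without them. Leaving them out keeps a single library in each DNp63 group, and far fewer of all genes were then called in the comparisons between DNp63 and CD1 libraries of the same gate. A call lost in that fit therefore cannot be laid to what these 2 libraries hold. Trp63, the gene of p63, was at 61 and 45 in the CD1 luminal pair, 1297 and 1460 in the DNp63 luminal pair, 5457 and 7079 in the CD1 basal pair and 8088 and 8306 in the DNp63 basal pair. These values do not separate reads of the ΔNp63 transgene from reads of the native gene.

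Elf5 and Ehf are neighbours on chromosome 2 (GRCm38, GENCODE M21): Elf5 spans 103411688 to 103450989 on the plus strand and Ehf 103263433 to 103303278 on the minus strand, with 108409 bases and 3 other annotated genes between them. Gata3 lies on the same chromosome, at 9857078 to 9890034 on the minus strand. Elf3 spans 135253575 to 135258568 on chromosome 1 (minus), Kit 75574916 to 75656722 on chromosome 5 (plus), Plet1 50494525 to 50505482 on chromosome 9 (plus) and Tspan8 115816832 to 115849893 on chromosome 10 (plus). Chromosome 11 carries Foxi1, at 34204338 to 34208089 on the minus strand, and Stat5a, at 100859351 to 100885169 on the plus strand. The end of Stat5b, the paralog of Stat5a, lies 8626 bases from the start of Stat5a, and 8.21% of the 50-base words of Stat5a transcripts also occur in Stat5b. Plet1 overlaps the antisense gene Plet1os, and the strand setting of the counting was not given in the sources used here, so reads of the pair cannot be told apart. The same holds for Stat5a and Stat3, which overlap on opposite strands, and for the antisense genes at Elf3, Gata3 and Tspan8. Gata3 also overlaps the protein-coding genes 4930412O13Rik, on the opposite strand, and 9230102O04Rik, on its own strand. With 9230102O04Rik it shares 0.73% of its 50-base words. Stat3 stood at 11374 to 14406 in the 8 libraries.

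RefSeq promoter windows (GRCm38.p6) were used for 8 of the 10 genes, in 11 windows. Windows of Ehf and Cd14 were not part of the search. Shown are the 250 bases before both annotated starts of Elf5 and before the first start of Kit, the 2 members whose patterns over the 8 libraries were closest, before the start of Plet1, the member with the highest level per exon length in every group, and before the second start of Stat5a, the member that was not called in any comparison. Capitals mark matches on either strand to the ETS core AGGAAG or the forkhead core TGTTTA. The coordinates are chr2:103411848-103412097 (plus) and chr2:103423818-103424067 (plus) for Elf5, chr5:75574737-75574986 (plus) for Kit, chr9:50494275-50494524 (plus) for Plet1 and chr11:100860234-100860483 (plus) for Stat5a.
Elf5, first start: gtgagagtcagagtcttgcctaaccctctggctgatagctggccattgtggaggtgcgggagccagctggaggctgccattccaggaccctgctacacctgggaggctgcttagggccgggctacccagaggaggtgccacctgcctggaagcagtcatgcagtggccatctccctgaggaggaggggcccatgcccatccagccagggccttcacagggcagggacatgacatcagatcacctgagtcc
Elf5, second start: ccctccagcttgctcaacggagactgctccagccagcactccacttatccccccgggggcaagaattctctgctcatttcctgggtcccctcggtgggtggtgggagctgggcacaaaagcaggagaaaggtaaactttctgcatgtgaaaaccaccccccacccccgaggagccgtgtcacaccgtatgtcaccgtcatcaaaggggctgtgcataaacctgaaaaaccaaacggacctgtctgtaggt
Kit, first start: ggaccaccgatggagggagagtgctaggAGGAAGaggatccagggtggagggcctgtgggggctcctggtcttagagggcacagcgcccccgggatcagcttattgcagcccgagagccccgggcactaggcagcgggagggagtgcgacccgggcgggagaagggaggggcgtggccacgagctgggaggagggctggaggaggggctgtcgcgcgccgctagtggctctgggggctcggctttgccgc
Plet1: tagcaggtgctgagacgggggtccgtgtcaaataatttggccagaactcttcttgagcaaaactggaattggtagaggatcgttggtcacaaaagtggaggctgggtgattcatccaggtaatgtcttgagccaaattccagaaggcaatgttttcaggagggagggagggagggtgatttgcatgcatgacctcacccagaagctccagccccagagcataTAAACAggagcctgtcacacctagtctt
Stat5a, second start: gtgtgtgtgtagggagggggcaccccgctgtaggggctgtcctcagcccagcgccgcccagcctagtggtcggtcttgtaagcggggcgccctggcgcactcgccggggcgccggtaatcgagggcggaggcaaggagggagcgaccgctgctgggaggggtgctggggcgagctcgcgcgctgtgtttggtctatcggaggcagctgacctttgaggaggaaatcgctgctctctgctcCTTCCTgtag

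A set of 5 patterns was searched in these windows on both strands: the ETS core AGGAAG, the GATA core AGATAA, the STAT pattern TTCNNNGAA, the forkhead core TGTTTA and the p53 family pattern, a pair of CATG runs 6 bases apart. No match of any pattern overlapped another. An ETS match was present in windows of Kit and Stat5a, that is in 2 of 8 members and 4 of 11 windows. Of 32851 promoter windows of the same length 29.5% had a match. In the windows shown it lay 222 bases before the start of Kit and 10 before that of Stat5a. A forkhead match was present for Plet1, Tspan8 and Stat5a (3 of 8 members and 3 of 11 windows, against 12.0% of all windows). It lay 28 bases before the start of Plet1 and 18 before that of Tspan8. GATA, STAT and p53 family patterns had no match in the members' windows (0 of 8 each), against 10.0%, 7.0% and 0.5% of all windows. A match is a run of letters in this window and is not evidence of a binding site.

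**Figure D1:**
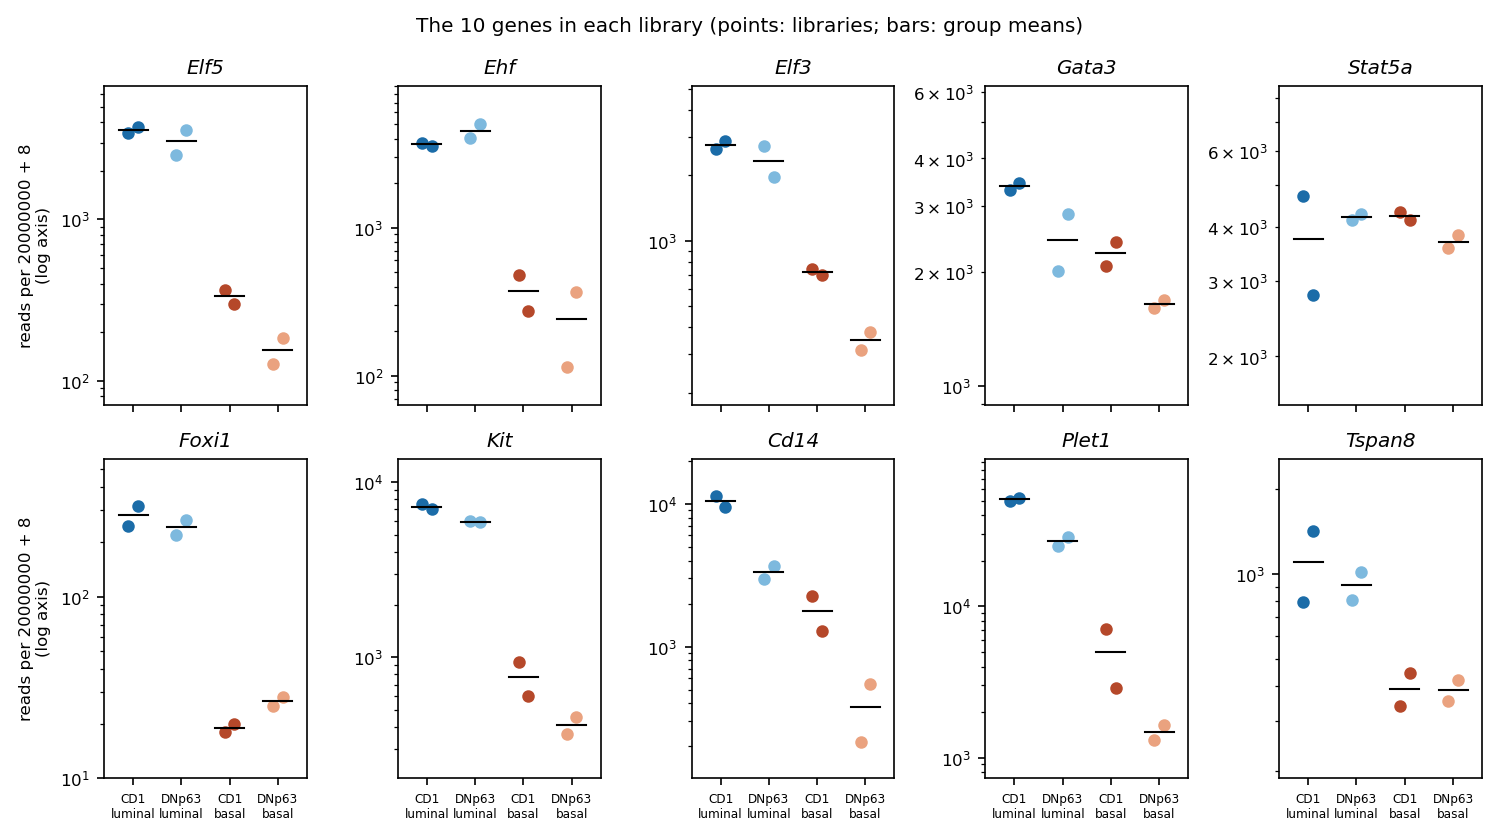
Each panel plots 1 gene as deposited value (reads per 20000000) plus 8 on a log axis, with points for the 8 libraries and bars for the group means; the axis range differs between panels. Elf5, Ehf, Elf3, Foxi1, Kit, Plet1 and Tspan8 show a gap between luminal and basal libraries, the luminal libraries of Cd14 divide into 9447 and above (CD1) and 3655 and below (DNp63), and Stat5a stays between 2768 and 4720.

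The first comparison asked how the 10 genes differ between the gates of CD1 mice. In CD1 basal libraries 9 of the 10 were lower than in CD1 luminal ones, by 1.52-fold for Gata3 up to 14.8-fold for Foxi1, and Stat5a was the exception. Over all genes tested 20.1% were called lower and 44.3% in either direction. A gene was called when its Benjamini-Hochberg adjusted p over the 16900 genes, from limma's moderated test on log2(value + 8), was under 0.05; folds are on that scale and understate the change of low genes. The median log2 difference of the 10 was -2.95, against -0.01 over all genes. The libraries of 9 genes did not overlap between the gates and were lower in the basal one (34.5% of all genes). Without the second DNp63 libraries 9 of 10 were again called. In bulk RNA, fewer cells of a type and less RNA per cell cannot be told apart.

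The 3 ETS factors were each lower in the basal gate, and their sizes differed. Elf5, the factor on which alveolar differentiation depends, stood at 3415 and 3731 in the CD1 luminal pair, 2518 and 3588 in the DNp63 luminal pair, 358 and 292 in the CD1 basal pair and 119 and 175 in the DNp63 basal pair. Every luminal library was above every basal library, and both DNp63 basal libraries were below both CD1 basal ones. Elf5 was 10.9-fold lower in CD1 basal than in CD1 luminal libraries (log2 difference -3.45, SE 0.23, adjusted p = 1.01e-05). Ehf, an epithelial ETS factor next to Elf5 on the chromosome, stood at 3745 and 3564, 4011 and 5024, 472 and 264, and 106 and 358 in the same order. Its DNp63 luminal libraries were the highest of all, and its 4 basal libraries were spread from 106 to 472 with the CD1 and DNp63 groups overlapping. The CD1 gate difference of Ehf was -3.36 (SE 0.47, adjusted p = 0.00056). Elf3, an ETS factor of simple epithelia, stood at 2631 and 2860, 2715 and 1953, 738 and 691, and 308 and 373. Its gate difference in CD1 mice was smaller, at -1.94 (SE 0.18, adjusted p = 6.43e-05), and its DNp63 basal libraries were both below its CD1 basal ones.

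Gata3 and Stat5a differed little between the gates. Gata3 stood at 3284 and 3446 in the CD1 luminal pair, 2013 and 2853 in the DNp63 luminal pair, 2070 and 2404 in the CD1 basal pair and 1598 and 1683 in the DNp63 basal pair. The CD1 luminal libraries were the highest and the DNp63 basal ones the lowest, and the DNp63 luminal values spanned those of CD1 basal. Its CD1 gate difference was -0.60 (SE 0.17, adjusted p = 0.0193), and the call was lost without the second CD1 luminal library (adjusted p = 0.0599) or the first CD1 basal library (0.12). T cells and innate lymphoid cells also carry Gata3. Summed values of 8 of their markers were 247 to 546 in luminal and 832 to 1367 in basal libraries. Of the 4 markers tested only Lck was called between the CD1 gates (2.47). The part of these cells in the Gata3 values was not tested. Stat5a stood at 4720 and 2768, 4155 and 4285, 4331 and 4136, and 3562 and 3815. The 2 CD1 luminal libraries were both the highest and the lowest of the 8, so that this group overlapped with every other. The CD1 gate difference of Stat5a was 0.21 (95% interval -0.27 to 0.69, adjusted p = 0.445). Without the first CD1 luminal library it was 0.61 and called (adjusted p = 0.00558), and without the second it was -0.16. Stat5b, its paralog, stood at 1197 to 1644 in all 8 libraries and was called in none of the comparisons.

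Foxi1, a forkhead factor of proton-secreting cells such as renal intercalated cells and airway ionocytes, was the scarcest member. Foxi1 values were 235 and 308 in the CD1 luminal pair, 211 and 255 in the DNp63 luminal pair, 10 and 12 in the CD1 basal pair and 17 and 20 in the DNp63 basal pair. These are 66 and 83, 76 and 65, 2 and 3, and 4 and 4 reads. All 4 luminal libraries were over 10 times above all 4 basal libraries. Per sequenced read the CD1 luminal libraries had 25.3 times as much Foxi1 as the CD1 basal ones (95% exact interval 10.6 to 79.1), and the DNp63 luminal libraries 12.7 times as much as the DNp63 basal ones (6.28 to 30); these intervals cover counting error only. The fitted gate difference in CD1 mice was -3.89 (SE 0.31, adjusted p = 2.89e-05).

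Among the surface markers, Kit had the smallest standard error of the gate difference. Kit, the receptor of stem cell factor, stood at 7510 and 7009 in the CD1 luminal pair, 5970 and 5955 in the DNp63 luminal pair, 930 and 595 in the CD1 basal pair and 359 and 450 in the DNp63 basal pair. The 4 groups did not overlap and lay in that order. Its CD1 gate difference was -3.29 (SE 0.20, adjusted p = 6.08e-06). Mast cells and melanocytes carry Kit as well. Summed mast cell markers were 143 to 518 in luminal and 102 to 203 in basal libraries, with Fcer1a at 0 in all 8, and melanocyte markers 201 to 357 and 394 to 428. Of the 5 mast cell markers tested 2 were called lower in CD1 basal than in CD1 luminal libraries, as was Kit. They were Mcpt4 (-3.45) and Cpa3 (-3.24), and 0 were higher, against 20.1% of all genes called lower. Neither of the 2 melanocyte markers tested was called there. The part of these cells in the Kit values was not tested.

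Cd14, which presents lipopolysaccharide to TLR4, stood at 11372 and 9447 in the CD1 luminal pair, 2987 and 3655 in the DNp63 luminal pair, 2239 and 1278 in the CD1 basal pair and 207 and 537 in the DNp63 basal pair. As for Kit, the 4 groups were separate, with the DNp63 luminal libraries between those of CD1 luminal and CD1 basal. The CD1 gate difference was -2.62 (SE 0.40, adjusted p = 0.000873). Macrophage and monocyte markers, whose cells also carry Cd14, summed to 761 to 909 in luminal and 947 to 1758 in basal libraries (10 genes). Of the 7 markers tested only Cd68 was called between the CD1 gates (1.69). The part of these cells in the Cd14 values was not tested.

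Plet1, a glycosylphosphatidylinositol-anchored surface protein of progenitor populations, had the highest values of the 10 in the luminal libraries. Its values were 49701 and 52192 in the CD1 luminal pair, 25149 and 28813 in the DNp63 luminal pair, 7055 and 2863 in the CD1 basal pair and 1303 and 1630 in the DNp63 basal pair. No 2 groups overlapped, and the CD1 basal pair differed more between themselves than any other pair of Plet1. The CD1 gate difference was -3.51 (SE 0.33, adjusted p = 6.16e-05). Plet1os, on the opposite strand of the same locus, stood at 4504 and 5472, 1605 and 1875, 678 and 264, and 140 and 112, with a CD1 gate difference of -3.54 (adjusted p = 8.36e-05). Tspan8, a tetraspanin, stood at 784 and 1408 in the CD1 luminal pair, 800 and 1010 in the DNp63 luminal pair, 330 and 436 in the CD1 basal pair and 346 and 411 in the DNp63 basal pair. It separated the gates, while CD1 and DNp63 libraries overlapped within each. Its CD1 gate difference was -1.46 (SE 0.28, adjusted p = 0.00324).

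The same gates were compared within DNp63 mice, where both groups were GFP-positive. Again 9 of 10 genes were lower in the basal gate, against 24.4% of all genes called lower and 49.2% in either direction, and the libraries of all 10 did not overlap (42.9% of all genes). Ehf differed by -4.43 (SE 0.47, adjusted p = 0.000102), Elf5 by -4.28 (0.23, 2.55e-06), Plet1 by -4.17 (0.33, 1.94e-05) and Kit by -3.83 (0.20, 2.13e-06). Cd14 was 9.48-fold, Foxi1 8.88-fold and Elf3 6.52-fold lower. Tspan8 (-1.21, adjusted p = 0.00774) and Gata3 (-0.52, adjusted p = 0.034) had the smallest called differences. Stat5a differed by -0.16 (95% interval -0.65 to 0.32, adjusted p = 0.548). The median was -3.20, against -0.08 over all genes. Without the second DNp63 library of each gate 7 of the 10 were called: Gata3 (-0.31, adjusted p = 0.333) and Tspan8 (-1.17, adjusted p = 0.115) were not, and both calls were also lost without the second DNp63 luminal library alone (0.25 and 0.0569) or the first DNp63 basal library alone (0.14 and 0.0569). Gata3 was not called without the second DNp63 basal library (0.0918), with median-ratio scaling (0.0553) or with no filter (0.0668) either.

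Whether the gate difference itself differed between DNp63 and CD1 mice was tested as an interaction. None of the 10 genes was called by limma (58 of all genes were, or 0.343%), and 2 of the 10 had an unadjusted p under 0.05, namely Elf3 (0.0169) and Elf5 (0.0297), as had 1781 of the 16900 genes. The interaction was -0.76 for Elf3 (95% interval -1.35 to -0.17), -0.83 for Elf5 (-1.55 to -0.10) and -1.07 for Ehf (-2.58 to 0.43). It was 0.73 for Foxi1 (-0.27 to 1.74), whose basal values rest on 2 to 4 reads. Fits on recovered reads with voom and fits with a replicate block also called none of the 10. Of the 10 luminal gate markers 4 were called lower in the interaction: Krt7 (-1.87), Cldn4 (-1.78), Krt19 (-1.55) and Krt18 (-1.40). Without the second DNp63 libraries no gene of the whole table was called in the interaction, these markers included.

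**Figure D2:**
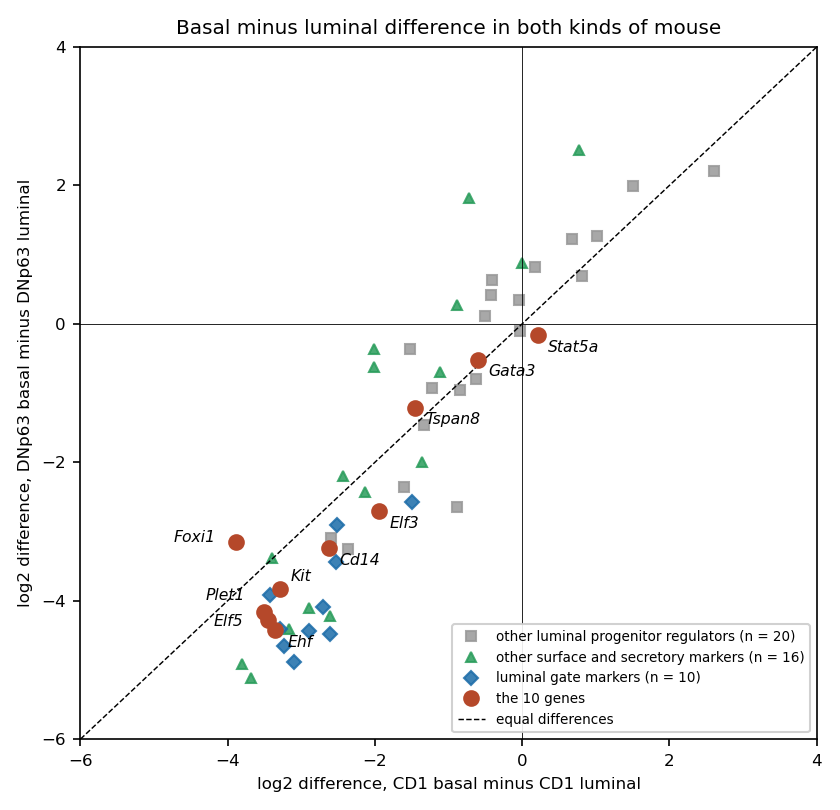
Each point is a gene, with its log2 difference between basal and luminal gates in CD1 mice on the x axis and in DNp63 mice on the y axis; the dashed line marks equal differences. Elf5, Ehf, Elf3, Kit, Cd14 and Plet1 lie below the line (Elf5 at -3.45 and -4.28), as do all 10 luminal gate markers, and Foxi1 lies above it (-3.89 and -3.15).

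The comparison of DNp63 luminal with CD1 luminal libraries asked how the genes stand in cells that carry the transgene and remain in the luminal gate. Cd14 was 3.26-fold lower (log2 difference -1.71, SE 0.40, adjusted p = 0.0491), and it was the only 1 of the 10 called, against 1.78% of all genes called lower and 4.43% in either direction. Its call was close to the threshold and was kept in 7 of 18 alternatives, with adjusted p-values of 0.00973 to 0.23. It was lost without either CD1 luminal library (0.112 without the first, 0.0978 without the second), without either DNp63 luminal library (0.23 and 0.189), without either CD1 basal library (0.0622 and 0.0616) and without the second DNp63 library of each gate (0.124). The difference was -1.57 to -1.84 in these fits. Both DNp63 luminal libraries were below both CD1 luminal ones for Gata3, Kit, Cd14 and Plet1 (4 of 10, against 18% of all genes) and above them for Ehf (1 of 10, against 28.3%).

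Plet1 differed by -0.98 (95% interval -1.72 to -0.23, adjusted p = 0.161) and Gata3 by -0.55 (-0.94 to -0.16, adjusted p = 0.132), neither of them called. Plet1 was called without the first (adjusted p = 0.0161) or the second CD1 basal library (0.0163), with the same difference. Plet1os was lower by 1.57 on the log2 scale (-1.57, adjusted p = 0.0423), a call kept in 8 of 18 alternatives with adjusted p-values up to 0.331. Kit differed by -0.34 (-0.79 to 0.10), Elf5 by -0.31 (-0.82 to 0.21), Elf3 by -0.31 (-0.73 to 0.10) and Foxi1 by -0.27 (-0.98 to 0.44). Tspan8 differed by -0.28 (-0.93 to 0.36), Ehf by 0.24 (-0.83 to 1.30) and Stat5a by 0.16 (-0.32 to 0.64). Stat5a was called without the first CD1 luminal library (0.55, adjusted p = 0.0408), and without the second Stat5a was at -0.22 and Tspan8 at 0.14. The lower bounds leave room for a decrease of over 1 log2 unit for Plet1 and Cd14 and for less than that for the other 8. The median of the 10 was -0.31, against 0.01 over all genes.

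The comparison of DNp63 basal with CD1 basal libraries asked how GFP-positive cells of the basal gate stand against native basal cells. Cd14 was 5.02-fold lower (log2 difference -2.33, SE 0.40, adjusted p = 0.0423) and Elf3 2.10-fold lower (-1.07, SE 0.18, adjusted p = 0.0423), so 2 of 10 were called, against 0.521% of all genes called lower and 0.716% in either direction. Both DNp63 basal libraries were below both CD1 basal ones for Elf5, Elf3, Gata3, Stat5a, Kit, Cd14 and Plet1 (7 of 10, against 22.8% of all genes), and above them for Foxi1 (1 of 10, against 19.8%). Plet1 (-1.64, 95% interval -2.38 to -0.89), Elf5 (-1.14, -1.65 to -0.62) and Kit (-0.89, -1.34 to -0.45) were not called, with adjusted p-values of 0.0785, 0.0785 and 0.0984. Ehf differed by -0.84 (-1.90 to 0.23), Gata3 by -0.46 (-0.85 to -0.07), Stat5a by -0.21 (-0.70 to 0.27) and Tspan8 by -0.02 (-0.67 to 0.62). Foxi1 had 8 reads in the DNp63 basal libraries and 5 in the CD1 basal ones, a ratio per sequenced read of 1.69 (95% exact interval 0.487 to 6.56). The median of the 10 was -0.86, against -0.04 over all genes.

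Both calls of that comparison depended on single libraries. None of the 10 was called without the first DNp63 luminal, the first CD1 basal or the first DNp63 basal library, or without the second DNp63 library of each gate, and 1 was called without the second DNp63 luminal, CD1 basal or DNp63 basal library. The adjusted p of Cd14 ranged from 0.0289 to 0.284 over 18 alternatives and that of Elf3 from 0.0395 to 0.245; the Cd14 difference was between -1.65 and -3.0 in the fits without libraries, and its sign did not change. Plet1 was called without the second CD1 basal library (-2.26, adjusted p = 0.0172), and Elf5 with the replicate number as a block (adjusted p = 0.0433). Ehf was at 0.0078 without the first DNp63 basal library, whose value of 106 was far below the 358 of the second. Markers of the luminal gate moved the same way: 8 of 10 were lower in DNp63 basal than in CD1 basal libraries (median -1.34), as were 5 of 10 hormone-sensing markers (median -1.44). Over all genes 0.521% were called lower there. The part of these markers in the lower values of the 10 genes was not tested. Without the second DNp63 libraries 0 of 10 of either list were called by limma, with medians of -1.29 and -1.25.

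**Figure D3:**
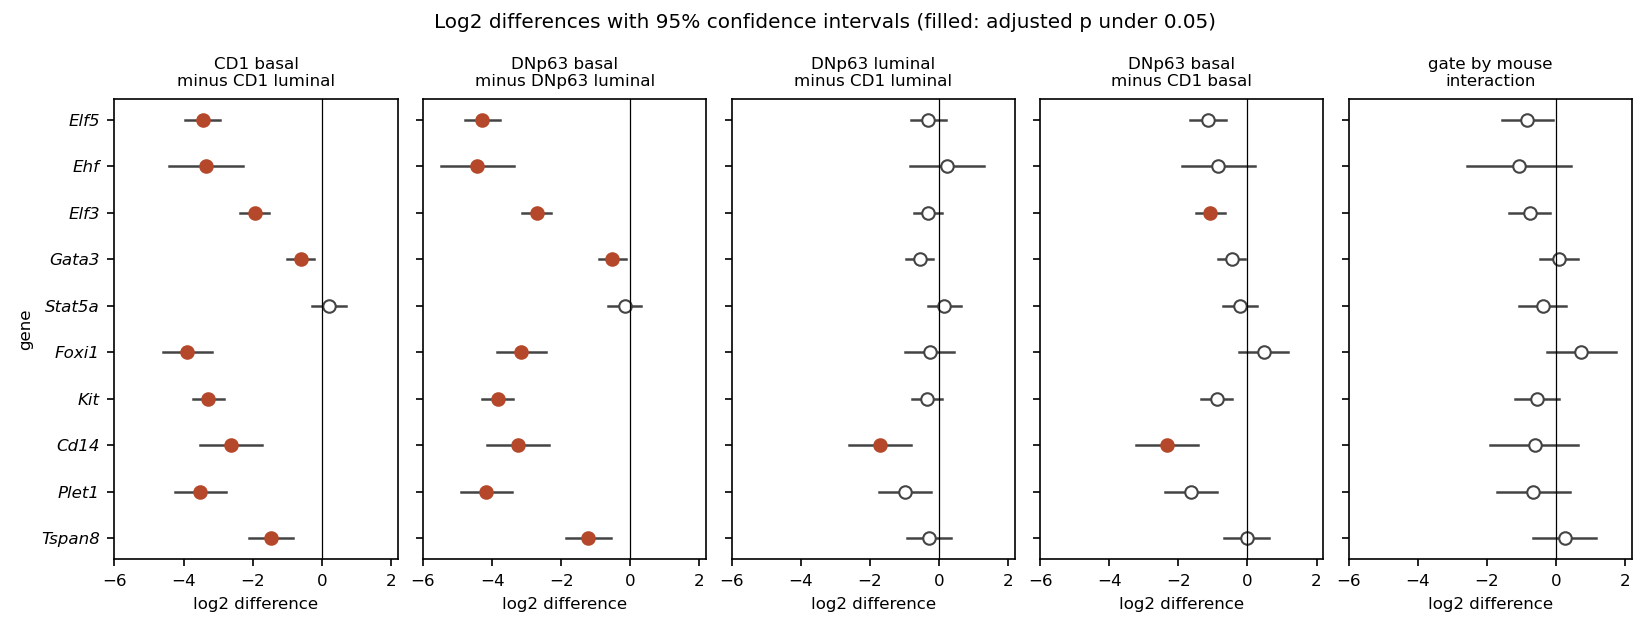
Log2 differences of the 10 genes (points) with 95% confidence intervals (lines) in 4 comparisons and the interaction, filled where the adjusted p was under 0.05. In both gate comparisons 9 genes are filled, between -0.52 and -4.43; in DNp63 luminal minus CD1 luminal only Cd14 is (-1.71), and in DNp63 basal minus CD1 basal only Cd14 (-2.33) and Elf3 (-1.07).

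Set against CD1 luminal libraries, the GFP-positive cells of the basal gate were lower for the same count of genes, 9 of 10, against 22.2% of all genes called lower and 47.2% in either direction. The libraries of 9 did not overlap (35.2% of all genes). Plet1 was 35.5-fold lower (log2 difference -5.15, SE 0.33, adjusted p = 6.42e-06), Cd14 30.9-fold (-4.95, SE 0.40, adjusted p = 2.18e-05) and Elf5 23.9-fold (-4.58, SE 0.23, adjusted p = 1.86e-06). Ehf (18.3-fold) and Kit (18.1-fold) came next, then Foxi1 (10.7-fold), Elf3 (8.09-fold), Tspan8 (2.81-fold) and Gata3 (2.09-fold). Stat5a differed by less than 0.01 (95% interval -0.48 to 0.48), and by 0.43 without the first CD1 luminal library (adjusted p = 0.0226). These 9 calls were kept without the second DNp63 libraries. This comparison shares its libraries with those above and is not independent of them.

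**Figure D4:**
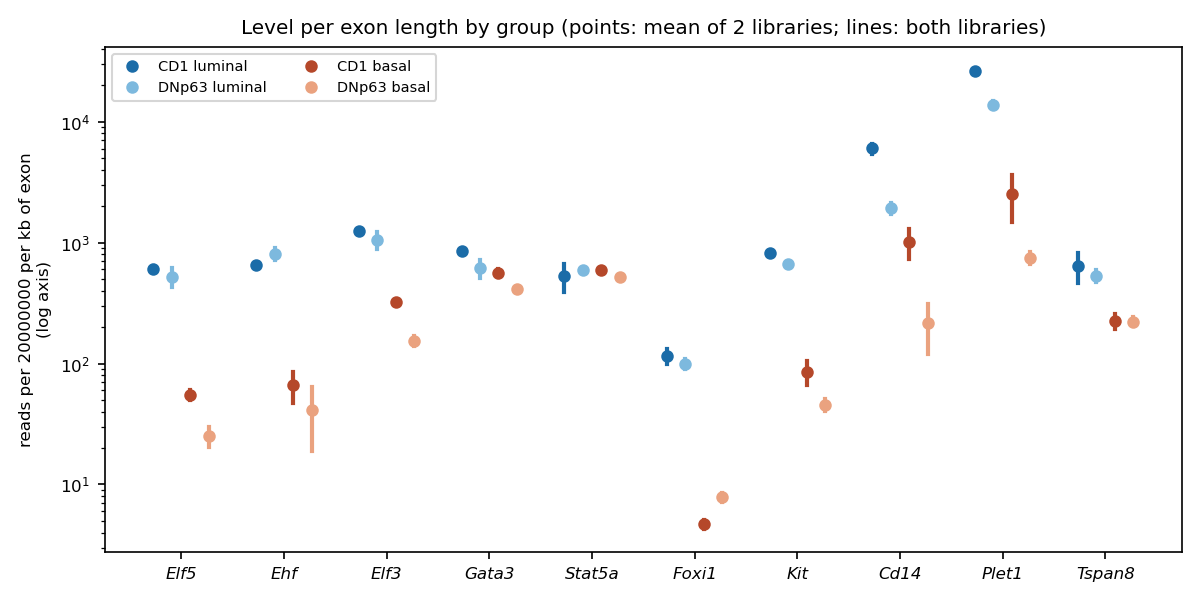
Level per exon length (reads per 20000000 per kb of exon, log axis) of each gene, with a point for the mean of 2 libraries and a line joining both libraries, for the 4 groups. Plet1 is highest and Foxi1 lowest in every group, and Stat5a lies between 517 and 594 in all 4 groups.

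Divided by exon length, the levels could be ordered within a group. In CD1 luminal libraries Plet1 (26167 reads per 20000000 per kb) and Cd14 (6010) led, followed by Elf3 (1238), and Foxi1 was last (115). Between them Gata3 (846), Kit (815), Ehf (655), Tspan8 (644), Elf5 (608) and Stat5a (525) lay close together. Tspan8 (461 to 827) and Stat5a (388 to 662) overlapped with each other and with Ehf (639 to 672) and Elf5 (581 to 635), while Ehf and Elf5 did not overlap. Tspan8 also overlapped with Kit (787 to 843) and just with Gata3 (826 to 866), and Kit with Gata3. The order changed in the basal gate. In DNp63 basal libraries Plet1 (753) was followed by Stat5a (517) and Gata3 (412), while Cd14 (215) overlapped with Tspan8 (222) and Elf3 (154), and Kit (45.4), Ehf (41.6) and Elf5 (25.0) were above Foxi1 (7.85) alone.

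Partners of KIT changed in other ways than Kit itself. Kitl, the gene of stem cell factor, stood at 10737 and 8339 in the CD1 luminal pair, 4732 and 3749 in the DNp63 luminal pair, 19347 and 19306 in the CD1 basal pair and 14339 and 14939 in the DNp63 basal pair. Its highest values were thus in the gate where Kit was low, with a CD1 gate difference of 1.02 (adjusted p = 0.000997). In the luminal gate Kitl was lower in DNp63 mice (-1.23, adjusted p = 0.00415). Of 18 genes of KIT signalling, 10 were higher and 4 lower in the basal gate of CD1 mice (8 and 3 without the second DNp63 libraries; 44.3% of all genes were called there in either direction), led by the kinase gene Fyn (3.19) and the adaptor gene Grb7 (-2.98). Kitl was the only 1 of the 18 called between the luminal groups, where 4.43% of all genes were called in either direction and 1.78% lower. It was called in 17 of 18 alternatives, and not without the second DNp63 libraries (-1.05, adjusted p = 0.147).

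Of the CD14 and TLR4 pathway 16 of 19 genes could be tested, and 7 were lower and 0 higher in the CD1 basal libraries, where 20.1% of all genes were lower. Tlr4, the signalling receptor to which CD14 passes its ligand, stood at 568 and 793, 791 and 658, 220 and 196, and 237 and 247 in the group order used above (CD1 gate difference -1.67, adjusted p = 0.00033). Its DNp63 luminal libraries lay within the range of the CD1 luminal ones (difference 0.04, adjusted p = 0.954). Lbp, which encodes the plasma protein that hands lipopolysaccharide to CD14, stood at 1174 and 1516, 236 and 380, 367 and 292, and 211 and 165. Lbp was the only other gene of the pathway called between the luminal groups (-2.18, adjusted p = 0.00317), and it was called in 18 of 18 alternatives. Between those groups 4.43% of all genes were called in either direction and 1.78% lower.

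In the prolactin and STAT5 pathway, with Stat5a itself not called, other genes were. Of 22 genes 19 were tested, and 8 were lower and 1 higher in DNp63 luminal than in CD1 luminal libraries (median -0.61, against 0.01 over all genes). Over all genes 1.78% were called lower there and 4.43% in either direction. The milk protein genes had the largest differences. Csn1s2a, a casein gene, stood at 14772 and 10721 in the CD1 luminal pair, 28 and 24 in the DNp63 luminal pair, 1946 and 2444 in the CD1 basal pair and 0 and 0 in the DNp63 basal pair, and Csn2, the gene of beta-casein, at 22750 and 20234, 73 and 423, 2784 and 3725, and 22 and 0. The luminal differences were -8.59 for Csn1s2a (adjusted p = 1.45e-06), -6.90 for Csn2 (0.00222) and -4.63 for Csn1s1 (0.00222). Feedback inhibitors that STAT5 is known to induce were lower too, namely Socs3 (-1.32, adjusted p = 0.0036), Socs2 (-1.30, 0.00415) and Cish (-0.67, 0.0345), whereas the kinase gene Jak2 was higher (0.55, 0.0274). Socs1, of the same kind, was not called (-0.61, adjusted p = 0.361). Cish was called in 8 and Jak2 in 9 of 18 alternatives, and without the second DNp63 libraries none of these was: Socs2 and Socs3 were at adjusted p = 0.144, Cish at 0.258 and Jak2 at 0.352. Prlr, the prolactin receptor gene, stood at 63919 and 89018, 78980 and 83926, 9985 and 11534, and 3279 and 3476. It was not called between the luminal groups (0.05, adjusted p = 0.927), whose libraries overlapped, and was lower in DNp63 basal than in CD1 basal libraries (-1.68, adjusted p = 0.00517; adjusted p = 0.161 without the second DNp63 libraries). Without the second DNp63 libraries 4 of the 19 were lower and 0 higher in the luminal comparison, among them Csn1s2a, Csn2 and Csn1s1.

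**Figure D5:**
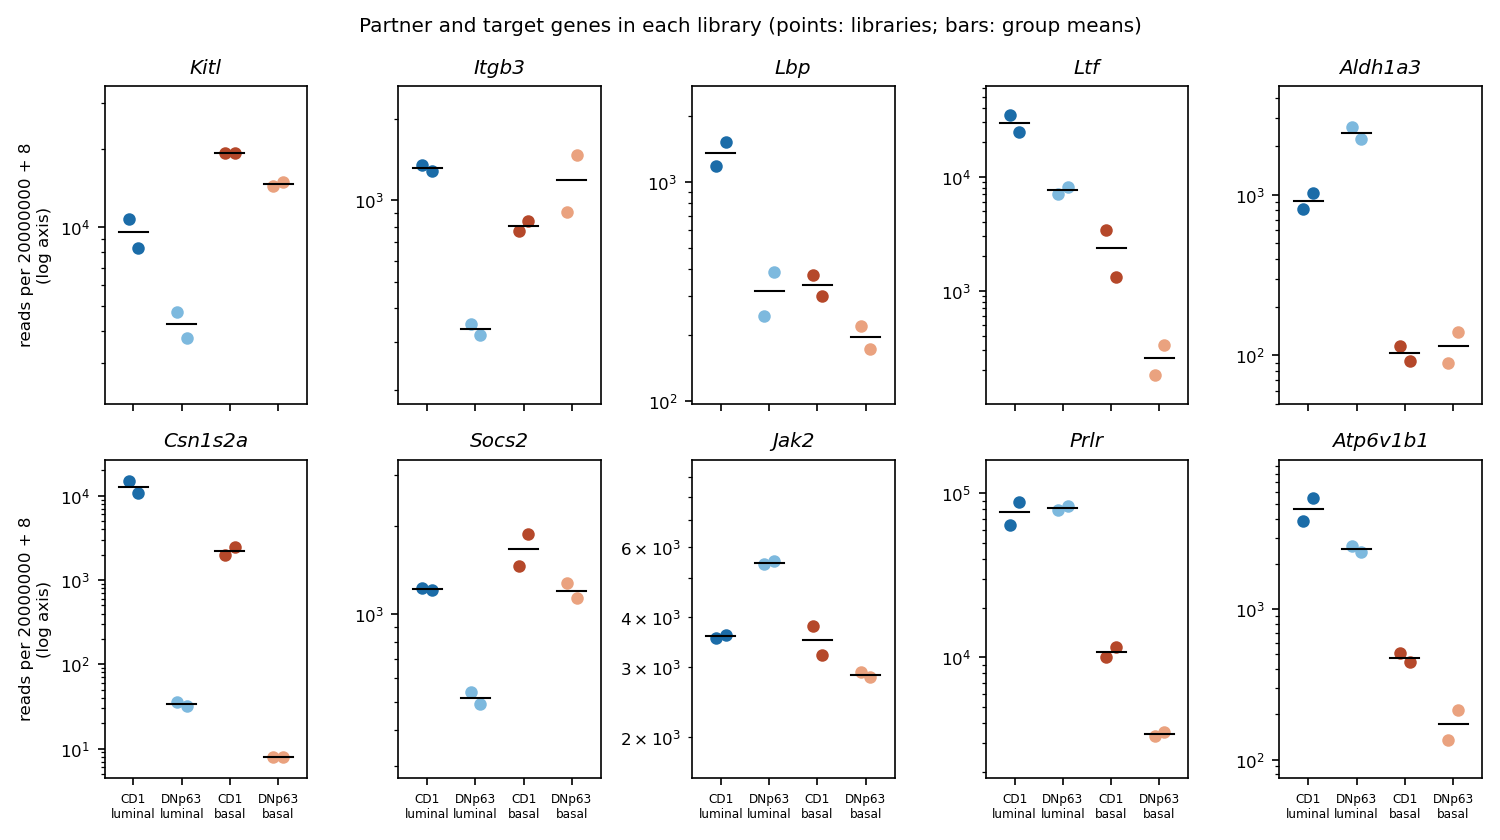
Deposited values (reads per 20000000, plus 8, log axis) of 10 partner and target genes, each point a library and each bar the mean of a group; the axis range differs between panels. Kitl is highest in CD1 basal libraries (19347 and 19306), Itgb3 is lowest in DNp63 luminal libraries (342 and 310), and Csn1s2a is at 14772 and 10721 (CD1 luminal) against 28 and 24 (DNp63 luminal).

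Few genes of a list of ionocyte and intercalated cell genes, which holds paralogs of Foxi1 beside pump subunits and channels, were measurable. Of 17 such genes 3 passed the filter, and 3 others (Atp6v1g3, Rhcg and Foxi2) were at 0 in all libraries. The 3 tested genes did not all move the same way. Atp6v1b1 and Car2 (-2.26) were lower in CD1 basal than in CD1 luminal libraries, and Atp6v1c2 was not called. Between the DNp63 gates Atp6v1b1 (-3.86) and Car2 (-2.15, called in 18 of 19 alternatives) were lower. Atp6v1c2 was higher there (1.01, adjusted p = 0.0317, called in 14 of 19 alternatives). Atp6v1b1, the proton pump subunit of intercalated cells, stood at 3833 and 5472 in the CD1 luminal pair, 2631 and 2383 in the DNp63 luminal pair, 500 and 436 in the CD1 basal pair and 127 and 204 in the DNp63 basal pair. Its CD1 gate difference was -3.29 (adjusted p = 1.77e-05). Atp6v1b1 was lower in DNp63 basal than in CD1 basal libraries (-1.50, adjusted p = 0.0365), where Foxi1 differed by 0.47. That call was kept in 8 of 18 alternatives and lost without the second DNp63 libraries. Between the CD1 gates 20.1% of all genes were called lower. Among 15 V-ATPase subunits common to all cells 11 were lower in CD1 basal libraries (9 without the second DNp63 libraries; median -0.75), led by Atp6v1g1 (-1.29).

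Other members of the transcription factor families were also examined. Of 18 other ETS genes tested 8 were higher and 3 lower in the basal gate of CD1 mice (44.3% of all genes were called and 20.1% were lower), led by Fli1 (4.91), Erg (4.81) and Elk3 (2.85), of which Fli1 and Erg are known from endothelium, and endothelial markers moved with the same gate; their part in these differences was not tested. Gata2, which endothelium and mast cells carry, stood at 29 and 15, 34 and 8, 403 and 484, and 451 and 324 (CD1 gate difference 3.94, adjusted p = 0.000246), opposite to Gata3. Among 23 other tetraspanin genes 8 were lower in CD1 basal libraries, such as Tspan33 (-3.17), and 7 higher (8 without the second DNp63 libraries), such as Tspan18 (3.96) and Tspan2 (2.87). Cd82 was the only 1 of the 23 called between the basal groups (-0.99, adjusted p = 0.0408), against -0.02 for Tspan8. Between the basal groups 0.716% of all genes were called in either direction and 0.521% lower. The Cd82 call was kept in 8 of 18 alternatives and lost without the second DNp63 libraries.

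Other genes with the reputation of luminal progenitor regulators were called in both directions. Of 20 such genes 9 were lower and 5 higher in the CD1 basal libraries (median -0.47). Over all genes 20.1% were called lower there and 44.3% in either direction. The grainyhead factor Grhl1 was at -2.60 and Tfap2c at 2.60. In DNp63 luminal libraries Grhl3, a grainyhead factor of surface epithelium, was higher (32 and 19 in CD1 luminal, 195 and 302 in DNp63 luminal; log2 difference 2.88, adjusted p = 0.0178), and Nfib was lower (-0.50, adjusted p = 0.0485). Klf5 was the only 1 of the 20 called between the basal groups (0.76, adjusted p = 0.0213). Over all genes 4.43% were called in either direction between the luminal groups and 0.716% between the basal groups. Without the second DNp63 libraries these calls of Grhl3 (adjusted p = 0.238), Nfib (0.431) and Klf5 (0.418) were lost.

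Over all genes 20.1% were called lower in CD1 basal than in CD1 luminal libraries. In DNp63 luminal against CD1 luminal libraries 1.78% were called lower and 4.43% in either direction. Of 16 other surface and secretory markers of luminal progenitors 14 were lower and 0 higher in the CD1 basal libraries (median -2.07), with lactoferrin, Ltf, at -3.80. Between the luminal groups 5 were lower in DNp63 mice and 1 higher (3 and 0 of 15 tested without the second DNp63 libraries). Itgb3, the gene of integrin beta 3 (CD61), stood at 1344 and 1271 in the CD1 luminal pair, 342 and 310 in the DNp63 luminal pair, 765 and 831 in the CD1 basal pair and 898 and 1460 in the DNp63 basal pair (luminal difference -2.04, adjusted p = 0.00222, called in 18 of 18 alternatives). Ltf was lower as well (-2.01, adjusted p = 0.0303; 0.232 without the second DNp63 libraries), and so were Lcn2 (-1.66, 0.00376), a siderophore-binding protein gene, and Mfge8 (-1.32, 0.0129; 0.148 without the second DNp63 libraries). Aldh1a3, the aldehyde dehydrogenase gene used to mark luminal progenitors, was higher (805 and 1016 against 2626 and 2211; 1.35, adjusted p = 0.0226, and 0.152 without the second DNp63 libraries). Against these, Kit, Elf5 and Tspan8 were not called between the luminal groups, and Cd14 was lower.

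Patterns over the 8 libraries were compared as the root mean square distance of log2 values centred on each gene's mean, a description over libraries that share their gates. Among the 10 the closest pair was Elf5 and Kit (0.25), followed by Elf5 and Ehf (0.39), and the farthest was Stat5a and Plet1 (2.07). Out of 12346 candidate genes, Ocln (0.19), the tight junction protein occludin, and Arhgef38 (0.21) were nearest to Kit, Muc20 (0.25) and Tmem56 (0.27) to Elf5, and Tspan33 (0.34) and Zfp750 (0.39) to Ehf. Elf3 was nearest to Ankrd33b (0.14) and Nek7 (0.18), Gata3 to Gm36940 (0.10) and Bloc1s6 (0.11), and Stat5a to Eif4a-ps4 (0.08) and Ino80e (0.08). Csn3, the kappa-casein gene, and Tph1 (both at 0.43) were nearest to Cd14, Rhov and Plet1os (both at 0.29) to Plet1, Marveld2 (0.39) and Krt8-ps (0.41) to Foxi1, and Appl2 (0.13) and Enpp5 (0.14) to Tspan8. Csn3 and Cd14 shared the step within the luminal gate: Csn3 stood at 32047 and 41253 in CD1 luminal and 11060 and 17560 in DNp63 luminal libraries.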

How the data were processed

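RNA of 8 sorted cell samples was sequenced and counted per gene. The submitters' processing notes name STAR, HTSeq and the build GRCm38/mm10. Their versions, the annotation release and the strand option were not given in the sources used here. As deposited, the values are a score, reads per 20000000 per the file headers, and are whole numbers that sum to slightly above 20000000, as rounding up by the authors would give. Values up to a low limit all fell on whole steps of 1 read, which gave the depth of each library (4136973 to 7206700 reads). Since the values are not raw counts, they were tested as log2(value + 8) after TMM scaling (trims of 30% and 5%; factors 0.974 to 1.03), with limma 3.58.1 in R 4.3.3, trend and a mean for each of 4 groups over all 8 libraries. Genes with at least 40 in 2 libraries were kept (16900 of 49671), and p-values were Benjamini-Hochberg adjusted over them. Tables and figures were made with Python 3.11.15, pandas 2.3.3, scipy 1.17.1 and matplotlib 3.10.9, and the procedure was tested on simulated data.

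The 10 genes, 10 pathway lists and 11 marker lists were chosen with earlier results of these data known. From each list up to 3 called genes with the largest differences are named; other list genes were chosen after their values were seen. Alternatives were other scalings, pseudocounts of 2 and 20, other filters, voom on recovered reads, replicate blocks, only the libraries compared and each library left out. Leaving out both DNp63 libraries with low Xist was added after the data were seen.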

Additional observations from a re-analysis of the deposited data

Results flagged for a closer look

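Groups of 2 are too small for a test of whether 1 library stands apart, and the 2 DNp63 libraries with low Xist are described above by their values. For 7 genes of the lists the difference between basal and luminal libraries was itself unlike in DNp63 and CD1 mice, by the interaction in limma (adjusted over all genes). Itgb3 was 2.54 log2 units higher in this interaction (adjusted p = 0.0243), as its DNp63 luminal libraries were low. The interaction of Trp63 was -4.08 (adjusted p = 0.000592), that of Krt7 -1.87 (0.0305), of Cldn4 -1.78 (0.0128), of Prlr -1.73 (0.032), of Krt19 -1.55 (0.0128) and of Krt18 -1.40 (0.0299). For Trp63, reads of the transgene and of the native gene cannot be told apart in these values. Without the second DNp63 library of each gate none of the 7 was called, but neither was any other gene of the table. That fit leaves a single library in each DNp63 group, so it cannot show whether these 7 differences depend on the libraries left out. Trp63 was called in 17 of 18 alternatives, Cldn4 in 12, Itgb3 and Krt19 in 11, and Krt7, Krt18 and Prlr in 10.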

How the results depend on the processing

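Between CD1 gates 9 of the 10 genes were called in the full data and 8 to 10 when each library was left out; between DNp63 gates 9, and 7 to 9; for DNp63 basal against CD1 luminal 9, and 9 to 10; for the interaction 0, and 0 throughout. In DNp63 luminal against CD1 luminal the count of 1 became 0 with no scaling, with a pseudocount of 2, with no filter, with a filter at 100 and without the second DNp63 library of each gate (an alternative chosen after seeing the data), and was 0 to 1 when each library was left out. In DNp63 basal against CD1 basal the count of 2 became 1 with a pseudocount of 2, 0 with no filter, with voom, with only the libraries compared and without the second DNp63 libraries, and was 0 to 2 when each library was left out. Over all genes that comparison had 121 calls, against 45 with no filter, 50 with voom, 19 without the second DNp63 libraries and 3 to 190 with each library left out. DNp63 luminal against CD1 luminal had 749, against 442 with no filter, 314 with only the libraries compared, 35 without the second DNp63 libraries and 142 to 985. The interaction had 58, against 10 with no filter, 22 with voom, 90 with a pseudocount of 20, 0 without the second DNp63 libraries and 4 to 163. Without those libraries DNp63 basal against CD1 luminal had 4853 in place of 7981, and the DNp63 gates 3739 in place of 8323.

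Replicate numbers are shared in the labels without a stated link. Deviations of same-numbered libraries correlated at 0.341 between CD1 gates, 0.267 between DNp63 gates and -0.014 to 0.040 across mouse lines. With the number as a replicate block 3 of 10 genes were called in DNp63 basal against CD1 basal, Elf5 joining at an adjusted p of 0.0433, and all-gene calls were 203 there and 128 for the interaction, or 502 with a block within each mouse line.

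Signs changed for small differences, and the cause was not tested. With each library left out, Stat5a ranged from -0.16 to 0.61 between CD1 gates and from -0.22 to 0.55 in the luminal comparison, Tspan8 there from -0.70 to 0.14, and the interactions of Stat5a from -0.72 to 0.05 and of Tspan8 from -0.12 to 0.72, the changed signs arising without the second CD1 luminal library. In DNp63 basal against CD1 luminal Stat5a was at 0.03 with no scaling, 0.02 with median-ratio scaling, 0.02 with only the libraries compared, from -0.33 to 0.43 with each library left out (0.43 without the first CD1 luminal library), and 0.05 without the first DNp63 luminal or the first DNp63 basal library. In DNp63 basal against CD1 basal Tspan8 was at 0.0028 with median-ratio scaling, 0.0099 with only the libraries compared, 0.02 without either CD1 luminal or the first DNp63 luminal library, 0.20 without the second CD1 basal library 0.10 without the first DNp63 basal library and -0.25 without the first CD1 basal library. Ehf there ranged from -1.68 to 0.0078, the latter without the first DNp63 basal library. The interaction of Gata3 ranged from -0.11 (without the first DNp63 luminal library) to 0.33, with -0.04 without the first CD1 basal library, and that of Cd14 from -1.30 to 0.05 (without the first DNp63 basal library). The depth limits Foxi1 most, with 2 to 4 reads in each basal library.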
